A study of Mus musculus with 9 samples.

Results

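Imprinted genes are expressed mainly or only from the copy inherited from the mother or from the copy inherited from the father. A list of 38 of them was followed across epiblast stem cells (EpiSCs), EpiSCs given the Wnt secretion inhibitor IWP2, and embryonic stem cells (ESCs). A gene was measured where a probe set of the array carried its symbol and no other, and of several probe sets the one with the highest mean over all arrays was used, with the others as a check. In this way 36 of the 38 were measured, among 18193 genes in all. H19, a maternally expressed noncoding RNA, had a probe set that it shares with Mir675, and no probe set carried the symbol Zrsr1 alone, so neither was counted. Of the 36, 19 are paternally expressed, 16 are maternally expressed, and Gnas gives transcripts from either copy.

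The parental choice is set in the germ line by DNA methylation at imprint control regions, and it has to survive the wave of demethylation that follows fertilisation. The zinc finger protein ZFP57 binds the methylated hexamer TGCCGC at such regions and, with its partner TRIM28, protects them. Many imprinted genes act on fetal and placental growth, paternally expressed ones often promoting it and maternally expressed ones often restraining it, and several are imprinted in some tissues only. Cultured pluripotent cells are known for unstable imprints. The array reads the sum of both copies, so the parental origin of a transcript was not measured.

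RNA of 9 cultures, 3 per group, was hybridised to mouse genome-wide Affymetrix arrays, and values are log2 signals. All cells grew in N2B27 medium. To this were added Activin A (20 ng/ml) and bFGF (12 ng/ml) for both EpiSC groups, on gelatine and serum, but LIF (1000 U/ml) with Wnt3a (250 ng/ml) for ESCs, on gelatine alone. EpiSCs stand for the primed state of the epiblast after implantation and ESCs for the earlier naive state. IWP2 inhibits Porcupine, the acyltransferase that cells need to secrete Wnt proteins. The labels give neither its dose nor its duration. All 9 cultures are labelled C57BL/6 and biological replicates, and the labels do not say how many lines they came from, so p-values measure the spread between these cultures. ESCs differ from EpiSCs in cell type and medium together.

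Arrays of a group correlated at 0.9965 to 0.9976 over all probe sets, and none stood apart. The excess of 3′ over 5′ signal at the actin controls, a sign of RNA quality, was 0.533 to 0.587 (log2) in vehicle EpiSCs, against 0.64 to 0.689 in IWP2 EpiSCs and 0.639 to 0.665 in ESCs, and its part in the results was not tested. The labels held against markers: all 10 naive markers were higher in ESCs than in vehicle EpiSCs and all 10 primed markers lower. Zfp42, a naive marker, had means of 2.54, 2.47 and 12.98 in vehicle EpiSCs, IWP2 EpiSCs and ESCs, and Fgf5, a primed marker, 10.86, 8.38 and 3.28. The Y-linked genes Eif2s3y, Kdm5d and Uty averaged 8.45 to 8.63 on vehicle and 8.48 to 8.63 on IWP2 arrays but 2.36 to 2.52 on ESC arrays, where all 3 were at the background of the array. Cell type, medium and sex chromosome content therefore cannot be told apart in the ESC comparisons. Here and below, the background stands for the lower quartile of all values, 3.72, where signals carry little information, and the median of all values was 5.24.

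The windows from 250 bases before to 50 bases after the start of transcription are shown for 5 members that the results turn on and that differ in parental copy and in response. They come from RefSeq on the build GRCm38.p6 and run along the strand of the gene, with the hexamer TGCCGC or its complement GCGGCA in capitals. Peg3 lies at chr7:6730370-6730669 on the minus strand, Plagl1 at chr10:13090582-13090881 on the plus strand, Mest at chr6:30737800-30738099 on the plus strand, Meg3 at chr12:109540746-109541045 on the plus strand and Grb10 at chr11:12037371-12037670 on the minus strand.
Peg3: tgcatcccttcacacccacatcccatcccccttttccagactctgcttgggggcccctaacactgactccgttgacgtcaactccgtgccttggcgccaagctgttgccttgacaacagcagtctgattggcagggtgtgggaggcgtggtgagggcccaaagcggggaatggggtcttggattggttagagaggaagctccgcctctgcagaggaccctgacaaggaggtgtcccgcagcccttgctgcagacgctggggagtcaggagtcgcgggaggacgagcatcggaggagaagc
Plagl1: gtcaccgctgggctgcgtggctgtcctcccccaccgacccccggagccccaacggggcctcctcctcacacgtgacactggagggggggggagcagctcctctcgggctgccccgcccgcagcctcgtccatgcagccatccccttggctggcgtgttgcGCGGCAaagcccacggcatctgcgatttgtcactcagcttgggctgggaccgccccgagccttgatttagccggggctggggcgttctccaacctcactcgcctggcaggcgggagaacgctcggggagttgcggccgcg
Mest: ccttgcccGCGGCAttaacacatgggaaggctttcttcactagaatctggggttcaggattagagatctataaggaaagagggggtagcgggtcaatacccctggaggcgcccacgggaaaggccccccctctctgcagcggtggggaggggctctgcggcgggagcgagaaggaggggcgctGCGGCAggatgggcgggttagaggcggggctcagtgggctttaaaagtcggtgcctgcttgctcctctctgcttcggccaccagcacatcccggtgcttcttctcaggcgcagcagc
Meg3: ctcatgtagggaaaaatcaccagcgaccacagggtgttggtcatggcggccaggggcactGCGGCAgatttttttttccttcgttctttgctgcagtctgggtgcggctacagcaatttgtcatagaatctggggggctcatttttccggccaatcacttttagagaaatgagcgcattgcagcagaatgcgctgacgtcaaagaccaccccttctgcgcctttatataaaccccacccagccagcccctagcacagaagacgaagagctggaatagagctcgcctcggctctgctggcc
Grb10: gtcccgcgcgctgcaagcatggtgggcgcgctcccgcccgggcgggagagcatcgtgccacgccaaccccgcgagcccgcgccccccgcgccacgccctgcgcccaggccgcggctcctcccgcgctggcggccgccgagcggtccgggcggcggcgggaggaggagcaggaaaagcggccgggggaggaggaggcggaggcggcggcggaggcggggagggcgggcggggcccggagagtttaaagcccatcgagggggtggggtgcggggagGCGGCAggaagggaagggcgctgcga

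Of the windows shown, that of Grb10 held 45 CpG sites, that of Plagl1 26, that of Mest 17 and those of Peg3 and Meg3 13 each. In these, Mest had 2 matches to the hexamer, Plagl1, Meg3 and Grb10 had 1 each and Peg3 had none. Further windows of Grb10 (9 CpG sites), Mest (8) and Meg3 (1) had no match. Another Mest window, from 30737803, overlaps the one shown and holds the same 2 matches, so counts by window include them again. RefSeq windows were matched for 32 of the 38 listed genes, giving 49 windows with a median of 13 CpG sites, against 7 in all windows of the table. The hexamer, searched on both strands, was found in 10 of these 49 windows (20.4%) and in 11.6% of all 32851 windows. By gene it was found for 9 of 32 (28.1%), against 13.05% of all genes with a window. The 9 were Grb10, Igf2, Meg3, Mest, Nap1l5, Nnat, Plagl1, Snrpn and Zim1. CTTTGAT, a motif of the TCF/LEF factors that act downstream of Wnt, was found on either strand in 0 of the 49 windows and in 3.73% of all windows. The windows of Peg3 and Usp29, which start from a shared region in opposite directions, overlap by 263 bases. A match describes the letters of a window and is not a binding site.

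Among the 36 measured members, IWP2 was accompanied by more falls than rises. In a further list of imprinted genes, given below, 10 rose and 9 fell with IWP2. At 2-fold or more, 1 gene of that list rose and 7 fell. With limma's adjusted p under 0.05 as the call, 20 of the 36 measured members were called, against 33.5% of all genes. Of them, 14 of the 36 measured members were lower in IWP2 than in vehicle EpiSCs (38.9%), against 16.8% of all genes, and 6 were higher (16.7%), against 16.6% of all genes. At a change of at least 2-fold, 5 members were lower, Asb4, Igf2, Plagl1, Peg3 and Mest, against 2.81% of all genes, and Slc38a4 was higher, against 0.901%. The arrays of both groups did not overlap in 24 members, against 47% of all genes. The median difference was -0.15 over the members and 0.03 over all genes. In bulk RNA, fewer cells of a type and less RNA per cell cannot be told apart. A list of 8 definitive endoderm markers (Foxa2, Sox17, Cer1, Gsc, Hhex, Shh, Cxcr4 and Foxa1) moved with the same comparison: all 8 fell by at least 2-fold, and the arrays' mean over the list ranged from 8.71 to 8.83 in vehicle EpiSCs, from 3.97 to 4.14 in IWP2 EpiSCs and from 4.29 to 4.30 in ESCs. Their part in the falls of imprinted genes was not tested.

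ESCs differed from vehicle EpiSCs in most members, as in most genes. Calls covered 31 of 36 members, against 66.6% of all genes, and 30 did not overlap, against 71%. In ESCs 17 members were higher (47.2%), against 38.7% of all genes, and 14 were lower (38.9%), against 27.9%. At 2-fold or more, 10 were higher, against 6.87% of all genes, and 9 were lower, against 9.63%. The median difference was 0.14 over the members (0.04 without ESC replicate 2) and 0.12 over all genes. Between ESCs and IWP2 EpiSCs 29 members were called, against 62.1% of all genes, and 30 did not overlap, against 67.1%. In ESCs 21 were higher (58.3%), against 35.2% of all genes, and 8 were lower (22.2%), against 26.9%. Of these, 9 were at least 2-fold higher, against 7.87% of all genes, and 4 at least 2-fold lower, against 9.4%. The 3 comparisons share arrays pair by pair, so a member's differences in them are not independent.

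**Figure D1:**
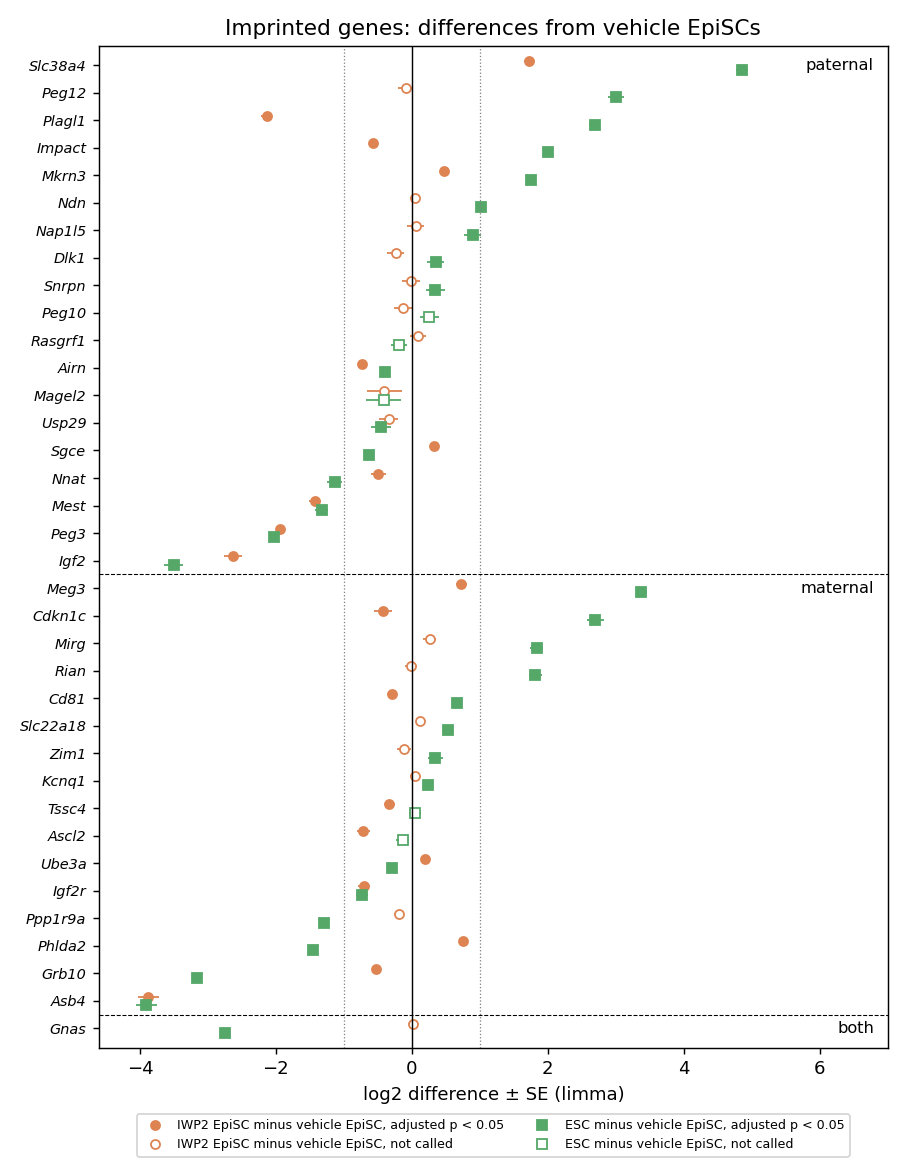
Each of the 36 measured imprinted genes is placed by its log2 difference from vehicle EpiSCs (horizontal axis, with standard error) in IWP2 EpiSCs (orange circles) and ESCs (green squares), filled where limma called it, with paternally expressed genes above, maternally expressed genes below them and Gnas last. The differences run from -3.88 to 1.73 in IWP2 EpiSCs and from -3.90 to 4.86 in ESCs, and both parental classes lie on both sides of 0.

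Among genes of fetal growth signalling, Igf2, a paternally expressed fetal growth factor, had signals of 9.66, 9.26 and 9.92 in vehicle EpiSCs, 6.99, 6.95 and 7.01 in IWP2 EpiSCs and 6.06, 6.21 and 6.06 in ESCs. The 3 groups did not overlap, vehicle arrays were highest and most spread, and ESC arrays were lowest. Igf2 fell with IWP2 (log2 difference -2.63 ± 0.136 SE, limma adjusted p = 5.27e-07), and its difference in ESCs was -3.50 (adjusted p = 7.88e-09). ESCs also lay below IWP2 EpiSCs, at -0.87 (adjusted p = 0.000268). The other Igf2 probe set, near the background, gave -0.60 and -0.57 against vehicle. Averaging both probe sets gives -1.62 with IWP2 and -2.04 in ESCs.

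Igf2r, the maternally expressed receptor that clears IGF2, had means of 9.40, 8.69 and 8.66 in vehicle EpiSCs, IWP2 EpiSCs and ESCs. It fell with IWP2 (log2 difference -0.70, adjusted p = 0.000278) and was lower in ESCs (-0.73, adjusted p = 5.39e-05). Airn, the paternally expressed antisense RNA that silences Igf2r on the father's copy, moved the same way, at -0.72 with IWP2 (adjusted p = 4.42e-05) and -0.40 in ESCs, from signals below the median. Receptor and antisense RNA, which come from opposite copies, were thus both lower in IWP2 EpiSCs and in ESCs than in vehicle EpiSCs.

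Grb10 encodes an adaptor that damps signalling from the insulin and IGF receptors and is maternally expressed in most tissues. Its signals were 12.59, 12.56 and 12.58 in vehicle EpiSCs, 12.07, 12.07 and 12.03 in IWP2 EpiSCs and 9.42, 9.42 and 9.40 in ESCs. The groups were ordered without overlap, with very little spread inside each. Against vehicle, Grb10 differed by -0.52 ± 0.048 with IWP2 (SE; adjusted p = 2.86e-05) and -3.16 in ESCs (8.97-fold, adjusted p = 1.26e-11). All 3 Grb10 probe sets were lower in both comparisons, and their mean gives -0.81 with IWP2.

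Cdkn1c, a maternally expressed inhibitor of cyclin-dependent kinases, had signals of 4.31, 4.50 and 4.35 in vehicle EpiSCs, 4.13, 3.62 and 4.12 in IWP2 EpiSCs and 6.97, 7.20 and 7.09 in ESCs. Both EpiSC groups were low, and every ESC array was above them. Its difference in ESCs was 2.70 from vehicle (adjusted p = 4.08e-08) and 3.13 from IWP2 EpiSCs (8.76-fold). The IWP2 difference of -0.43 passed limma (adjusted p = 0.0303) but not without any single vehicle array (adjusted p = 0.0522 to 0.102) or without IWP2 replicate 2 (-0.26, adjusted p = 0.0569).

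Phlda2, which restrains growth of the placenta from the mother's copy, had signals of 8.43, 8.45 and 8.44 in vehicle EpiSCs, 9.18, 9.13 and 9.28 in IWP2 EpiSCs and 6.98, 7.04 and 6.94 in ESCs. The groups did not overlap, and vehicle EpiSCs lay between the others. It rose by 0.76 ± 0.058 with IWP2 (SE; adjusted p = 7.88e-06) and was lower in ESCs at -1.45 (adjusted p = 9.53e-09). Cdkn1c and Phlda2 belong to the Kcnq1 domain, of which 7 members were measured. With IWP2, 1 of the 7 rose and 4 fell (71.4% called, against 33.5% of all genes), and in ESCs against vehicle 4 were higher and 1 lower (71.4%, against 66.6%). The falls with IWP2 were Cdkn1c, Tssc4 (-0.33), the tetraspanin Cd81 (-0.29) and Ascl2, a trophoblast transcription factor (-0.71, adjusted p = 0.000334). The call of Tssc4 ended without IWP2 replicate 2 or 3 (adjusted p = 0.0527 and 0.0541). Ascl2 had a difference of -0.13 in ESCs that did not pass, but did without vehicle replicate 2 (-0.23, adjusted p = 0.0334), as the mean of its probe sets (-0.56, adjusted p = 0.000712) and from probe sets without _x_at or _s_at in their name (-0.86, adjusted p = 0.000367). Kcnq1ot1, the antisense RNA that silences this domain on the father's copy, was not among the 38, and its means were 8.46, 6.78 and 8.64, with a log2 difference of -1.68 ± 0.064 with IWP2 (SE; adjusted p = 5.74e-08).

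Peg3 and Plagl1 encode zinc finger proteins and are paternally expressed. Peg3 had signals of 12.23, 12.06 and 12.26 in vehicle EpiSCs, 10.22, 10.27 and 10.26 in IWP2 EpiSCs and 10.11, 10.13 and 10.21 in ESCs. Every vehicle array was above all others. Peg3 differed from vehicle by -1.93 ± 0.065 with IWP2 (SE; adjusted p = 2.54e-08) and -2.03 in ESCs (adjusted p = 1.89e-09), while ESCs and IWP2 EpiSCs differed by -0.10 ± 0.065 (SE; adjusted p = 0.208). Of its 5 probe sets, 3 fell with IWP2 and the others were at the background, so that the mean over all 5 is -1.25. Usp29, which starts from the same region as Peg3, had -0.34 with IWP2, not passing, but passed without vehicle replicate 1 (-0.52, adjusted p = 0.00644) and with its probe sets averaged (-0.29, adjusted p = 0.0167). In ESCs it had -0.45 (adjusted p = 0.0194), a call lost without vehicle replicate 2 or 3 or ESC replicate 1 (adjusted p = 0.0535 to 0.0743). The maternally expressed Zim1 of this domain had means of 3.51, 3.40 and 3.86, near the background in every group, and was called higher in ESCs than in vehicle EpiSCs (0.35, adjusted p = 0.0137) and IWP2 EpiSCs (0.46, adjusted p = 0.0032).

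Plagl1 moved in opposite directions in the IWP2 and ESC comparisons. Its signals were 8.99, 8.91 and 9.17 in vehicle EpiSCs, 6.90, 6.99 and 6.78 in IWP2 EpiSCs and 11.76, 11.68 and 11.71 in ESCs. The groups were far apart without overlap. The difference from vehicle was -2.14 ± 0.081 with IWP2 (SE; adjusted p = 5.47e-08) and 2.69 in ESCs (adjusted p = 1.23e-09), and ESCs were 28.4-fold above IWP2 EpiSCs. The probe set has a name ending in _x_at, which marks probes that may match other transcripts. The other 2 gave -0.43 (called) and -0.22 (not called) with IWP2, and 1.50 and 2.43 in ESCs, so the direction held but the fall was far smaller.

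Mest, a paternally expressed hydrolase-family enzyme, had signals of 11.05, 11.29 and 10.89 in vehicle EpiSCs, 9.64, 9.72 and 9.61 in IWP2 EpiSCs and 9.79, 9.75 and 9.71 in ESCs. Vehicle arrays were above all others. Mest differed from vehicle by -1.42 ± 0.093 with IWP2 (SE; adjusted p = 2.66e-06) and -1.33 in ESCs (adjusted p = 7.02e-07), and ESCs differed from IWP2 EpiSCs by 0.10 (adjusted p = 0.391).

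Slc38a4, a paternally expressed amino acid transporter, was the single member at least 2-fold higher with IWP2. Its signals were 4.76, 5.07 and 5.09 in vehicle EpiSCs, 6.68, 6.77 and 6.67 in IWP2 EpiSCs and 9.87, 9.81 and 9.82 in ESCs. The groups rose in that order without overlap. The difference from vehicle was 1.73 ± 0.086 with IWP2 (SE; adjusted p = 3.88e-07) and 4.86 in ESCs (29.0-fold, adjusted p = 3.27e-11). A second probe set gave 1.30 and 4.94. Vehicle signals were low, and an offset of 32 on the linear scale brings the IWP2 difference to 1.10.

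Impact, a paternally expressed inhibitor of the translation kinase GCN2, had signals of 9.27, 9.43 and 9.27 in vehicle EpiSCs, 8.83, 8.69 and 8.74 in IWP2 EpiSCs and 11.31, 11.30 and 11.37 in ESCs. ESC arrays were highest and IWP2 arrays lowest, without overlap. Impact differed from vehicle by -0.57 ± 0.065 with IWP2 (SE; adjusted p = 0.000128) and 2.00 in ESCs (adjusted p = 2.11e-09). Its 2 other probe sets were called lower in ESCs (-0.83 and -0.26), so the rise in ESCs rests on 1 probe set, and the mean of the 3 is 0.31.

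**Figure D2:**
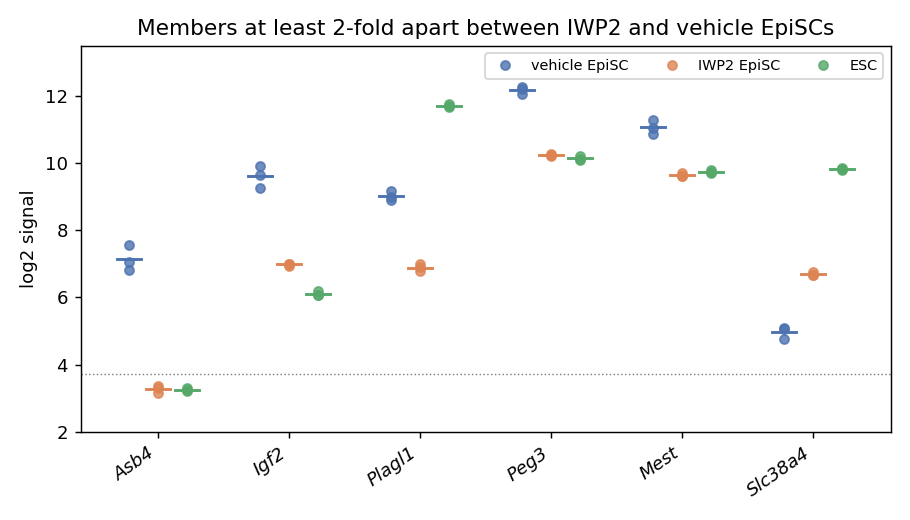
The log2 signal (vertical axis) of the 6 members at least 2-fold apart between IWP2 and vehicle EpiSCs is shown for each array (points) with the group mean (bars), and the dotted line is the lower quartile of all values, 3.72. Asb4, Igf2, Plagl1, Peg3 and Mest were lower in IWP2 EpiSCs and Slc38a4 was higher, while the ESC difference from vehicle was 2.69 for Plagl1 and -2.03 for Peg3.

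The Dlk1-Meg3 domain was higher in ESCs in all its 4 members, against 38.7% of all genes, with a median of 1.83. Meg3, a maternally expressed long noncoding RNA, had signals of 6.60, 6.84 and 6.60 in vehicle EpiSCs, 7.39, 7.43 and 7.41 in IWP2 EpiSCs and 9.94, 10.17 and 10.07 in ESCs. The groups rose in that order without overlap. The difference from vehicle was 0.73 ± 0.084 with IWP2 (SE; adjusted p = 0.000125) and 3.38 in ESCs (10.4-fold, adjusted p = 3.31e-10). All 11 Meg3 probe sets were called higher in ESCs, by 0.52 to 3.88, with a mean over them of 1.92 in ESCs and 0.40 with IWP2.

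Rian, the maternally expressed host of small nucleolar RNAs, had signals of 4.83, 4.79 and 4.85 in vehicle EpiSCs, 4.71, 4.97 and 4.76 in IWP2 EpiSCs and 6.67, 6.46 and 6.79 in ESCs. Its difference in ESCs was 1.82 ± 0.094 (SE; adjusted p = 6.91e-08), with the EpiSC groups overlapping at a difference of -0.01. Mirg, the host of a microRNA cluster, had signals of 3.79, 3.70 and 3.67 in vehicle EpiSCs, 4.03, 3.85 and 4.08 in IWP2 EpiSCs and 5.36, 5.58 and 5.73 in ESCs. It was 1.84 ± 0.098 higher in ESCs than in vehicle EpiSCs (SE; adjusted p = 8.23e-08), and vehicle signals at the background make this a lower limit. The 4 Rian and 2 Mirg probe sets were all higher in ESCs.

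Dlk1, the paternally expressed Notch-ligand-like protein of the domain, stayed near the background with signals of 3.81, 3.86 and 3.94 in vehicle EpiSCs, 3.53, 3.79 and 3.57 in IWP2 EpiSCs and 4.06, 4.54 and 4.07 in ESCs. Its difference of 0.35 in ESCs passed limma (adjusted p = 0.0319) but not without vehicle replicate 1 or 2 (adjusted p = 0.091 and 0.0726) or ESC replicate 2 (0.20, adjusted p = 0.0836), and its other probe set gave 0.15 (adjusted p = 0.254). The members of this domain well above the background in ESCs were its maternally expressed noncoding RNAs.

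**Figure D3:**
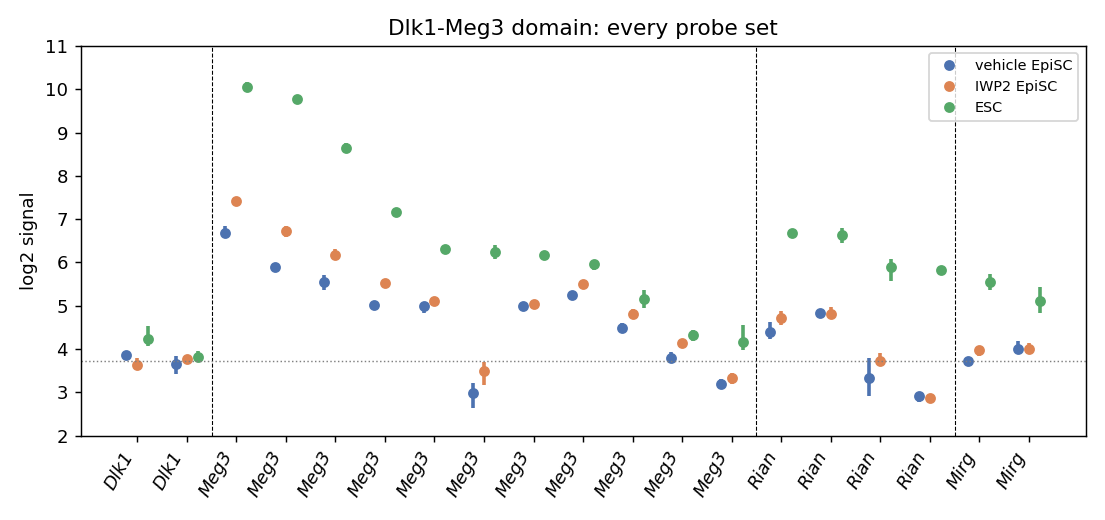
Every probe set of Dlk1, Meg3, Rian and Mirg is shown by its log2 signal (vertical axis), with the group mean as a point and the range of the 3 arrays as a line. The 11 Meg3, 4 Rian and 2 Mirg probe sets were higher in ESCs than in vehicle EpiSCs, while the 2 Dlk1 probe sets stayed near the lower quartile of all values, 3.72 (dotted line).

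In the Snrpn domain, 4 of 6 measured members were higher in ESCs than in vehicle EpiSCs and 1 was lower (83.3% called, against 66.6% of all genes), and with IWP2 2 were higher and 0 lower (33.3%, against 33.5%). Ndn, a MAGE family protein of neurons, had signals of 8.49, 8.74 and 8.53 in vehicle EpiSCs, 8.59, 8.68 and 8.64 in IWP2 EpiSCs and 9.60, 9.55 and 9.64 in ESCs. The EpiSC groups overlapped and ESC arrays were above both, at 1.01 ± 0.073 over vehicle (SE; adjusted p = 8.41e-07). All 8 Ndn probe sets were called higher in ESCs, by 0.25 to 1.04. Those with the smallest differences (0.58, 0.42 and 0.25) were at the background in every group.

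Mkrn3, a makorin ring finger protein, had signals of 5.78, 5.67 and 5.69 in vehicle EpiSCs, 6.22, 6.10 and 6.24 in IWP2 EpiSCs and 7.39, 7.50 and 7.51 in ESCs. The groups rose in that order without overlap, by 0.48 ± 0.063 with IWP2 (SE; adjusted p = 0.000333) and 1.75 in ESCs (adjusted p = 4.5e-09). Peg12, a Frat family protein that binds GSK3, had signals of 2.67, 2.79 and 2.45 in vehicle EpiSCs, 2.35, 2.62 and 2.68 in IWP2 EpiSCs and 5.79, 5.56 and 5.56 in ESCs. Both EpiSC groups were at the background, so the ESC difference of 3.0 (adjusted p = 6.55e-09) is a lower limit.

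These 3 genes are paternally expressed, and Ube3a, a ubiquitin ligase expressed from the mother's copy in neurons, was the member of the domain that was lower in ESCs (-0.29) and slightly higher with IWP2 (0.19, but 0.06 without a call when its probe sets are averaged). Magel2, another MAGE family gene, passed in none of the comparisons, with -0.40 and -0.41 from vehicle, although without ESC replicate 1 the ESC difference was -0.69 (adjusted p = 0.02). Snrpn, a splicing protein, was 0.35 higher in ESCs (adjusted p = 0.0438). That call ended without vehicle replicate 3 (0.20, adjusted p = 0.155) and without ESC replicate 3 (0.25, adjusted p = 0.147). It also ended in 3 further fits that left out an array (adjusted p = 0.0541 to 0.0678). Snrpn was read from 1 probe set alone, because 6 others carry its symbol together with further symbols and were left out.

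The Peg10-Sgce domain split between its members. Asb4, a maternally expressed ankyrin and SOCS box protein, had signals of 7.07, 6.83 and 7.57 in vehicle EpiSCs, 3.37, 3.16 and 3.31 in IWP2 EpiSCs and 3.20, 3.30 and 3.25 in ESCs. It was expressed in vehicle EpiSCs and at the background on every other array. Its fitted difference from vehicle was -3.88 ± 0.155 with IWP2 (SE; adjusted p = 8.03e-08) and -3.90 in ESCs (adjusted p = 9.02e-09), and both understate the size. For the same comparisons a second probe set gave -4.13 and -4.03.

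Ppp1r9a, the actin-binding protein neurabin, had signals of 8.08, 8.09 and 8.30 in vehicle EpiSCs, 7.87, 8.05 and 7.99 in IWP2 EpiSCs and 6.86, 6.87 and 6.87 in ESCs. ESC arrays were below all EpiSC arrays, by -1.29 ± 0.074 against vehicle (SE; adjusted p = 1.46e-07), and all 5 probe sets were lower there. The IWP2 difference of -0.18 did not pass (adjusted p = 0.0832). It passed narrowly with low-signal genes left out (adjusted p = 0.0454) and with an offset of 32 (adjusted p = 0.0498). Of the 5 probe sets, 1 was called lower with IWP2 (-0.37, adjusted p = 0.00255) and 4 were not called. Sgce, a paternally expressed sarcoglycan, rose with IWP2 by 0.33 and was lower in ESCs at -0.63, and the retrotransposon-derived Peg10 was at the background in all groups. The ESC difference of Peg10 from IWP2 EpiSCs passed (0.38, adjusted p = 0.0352), but not without IWP2 replicate 1 or 2 or ESC replicate 2 (adjusted p = 0.0582 to 0.103).

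Gnas encodes the G protein subunit Gs alpha and further transcripts from either parental copy. Its signals were 12.41, 12.37 and 12.57 in vehicle EpiSCs, 12.47, 12.46 and 12.46 in IWP2 EpiSCs and 9.71, 9.71 and 9.69 in ESCs. The EpiSC groups overlapped at a difference of 0.01 (adjusted p = 0.898), and ESC arrays lay far below them, at -2.75 ± 0.061 against vehicle (SE; adjusted p = 1.59e-10). Of 5 Gnas probe sets 3 were lower in ESCs and the others were at the background, which brings the mean over all 5 to -1.28.

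Nnat, a paternally expressed membrane proteolipid of developing brain, had signals of 5.21, 5.36 and 5.04 in vehicle EpiSCs, 4.48, 4.79 and 4.87 in IWP2 EpiSCs and 4.10, 4.14 and 3.98 in ESCs. The groups fell in that order without overlap, by -0.49 with IWP2 (adjusted p = 0.00775) and by 2.20-fold in ESCs, all from signals around or below the median. Nap1l5, a nucleosome assembly protein family member, had means of 3.26, 3.31 and 4.15, so that its rises in ESCs of 0.90 over vehicle (adjusted p = 0.000102) and 0.84 over IWP2 EpiSCs start from the background. Rasgrf1, Peg10 and Zim1 also lay at or near the background, and 9 of the 36 members were below the median of all values in every group. Low signals make the size of a difference depend on the scale: with an offset of 32 the ESC differences from vehicle were 1.10 for Peg12, 1.13 for Rian, 0.81 for Mirg, 1.67 for Cdkn1c and -2.08 for Asb4, all still called.

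**Figure D4:**
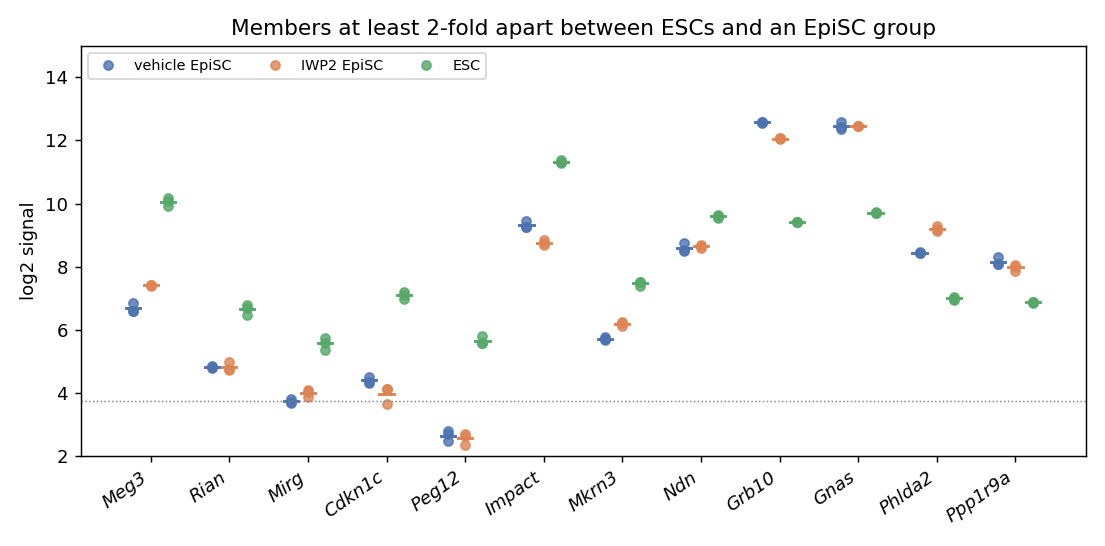
The log2 signal (vertical axis) of 12 further members at least 2-fold apart between ESCs and an EpiSC group is shown for each array (points) with the group mean (bars), and the dotted line is the lower quartile of all values, 3.72. The first 8 genes, Meg3 to Ndn, were higher in ESCs and the last 4, Grb10, Gnas, Phlda2 and Ppp1r9a, were lower, and Peg12 was at the dotted line or below it in both EpiSC groups.

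The parental classes gave similar counts. With IWP2, 3 of 19 paternally expressed members were higher (15.8%) and 7 lower (36.8%), with a median of -0.24 (-0.13 without vehicle replicate 2). Of 16 maternally expressed members, 3 were higher (18.8%) and 7 lower (43.8%), with a median of -0.15 (-0.06 without IWP2 replicate 1). Over all genes, 16.6% were higher and 16.8% lower. In ESCs against vehicle, 9 paternally expressed members were higher (47.4%) and 7 lower (36.8%), with a median of 0.26 (0.07 without ESC replicate 2). Of the maternally expressed members, 8 were higher (50%) and 6 lower (37.5%), with a median of 0.14. Over all genes, 38.7% were higher and 27.9% lower. Against IWP2 EpiSCs, no paternally expressed member was at least 2-fold lower in ESCs (0 of 19, against 9.4% of all genes at that size), while 3 of 16 maternally expressed members were, Grb10, Phlda2 and Ppp1r9a. The difference between the classes was not tested. In 6 measured members the control region is methylated on the father's copy (Igf2, Rasgrf1, Dlk1, Meg3, Rian and Mirg). Of them, 4 were higher in ESCs than in vehicle EpiSCs (66.7%, against 38.7% of all genes) and 1 was lower (16.7%, against 27.9%). All 4 belong to the Dlk1-Meg3 domain, and the call of Dlk1 ended without some single arrays.

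Genes that set, keep or erase imprints were read as a list of 30, of which 28 were measured. With IWP2, 7 were higher and 2 lower (32.1% called, against 33.5% of all genes), none by 2-fold, the largest difference being 0.75 for the histone methyltransferase Setdb1 (adjusted p = 7.48e-06). In ESCs 17 were higher and 8 lower than in vehicle EpiSCs (89.3% called, against 66.6% of all genes). Dnmt3l, the cofactor of de novo methylation, had means of 4.40 in vehicle EpiSCs and 9.56 in ESCs, Dppa3, which protects maternal methylation in the zygote, 4.66 and 9.37, and the 5-methylcytosine oxidase Tet2 7.37 and 10.84. Zfp57 had means of 5.38 in vehicle EpiSCs, 5.56 in IWP2 EpiSCs and 7.54 in ESCs, and its difference in ESCs was 2.16 ± 0.076 (SE; adjusted p = 3.8e-09). The de novo methyltransferase Dnmt3b (-1.42), Smchd1 (-1.24) and the heterochromatin protein gene Cbx5 (-1.02) were lower in ESCs by at least 2-fold. The other regulators called lower in ESCs were Dnmt3a (-0.60), Ehmt1 (-0.54), Zfp445 (-0.535), Ezh2 (-0.32) and Arid4b (-0.19). The maintenance genes Dnmt1 (0.40) and Uhrf1 (0.52) and the ZFP57 partner Trim28 (0.69) were higher.

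**Figure D5:**
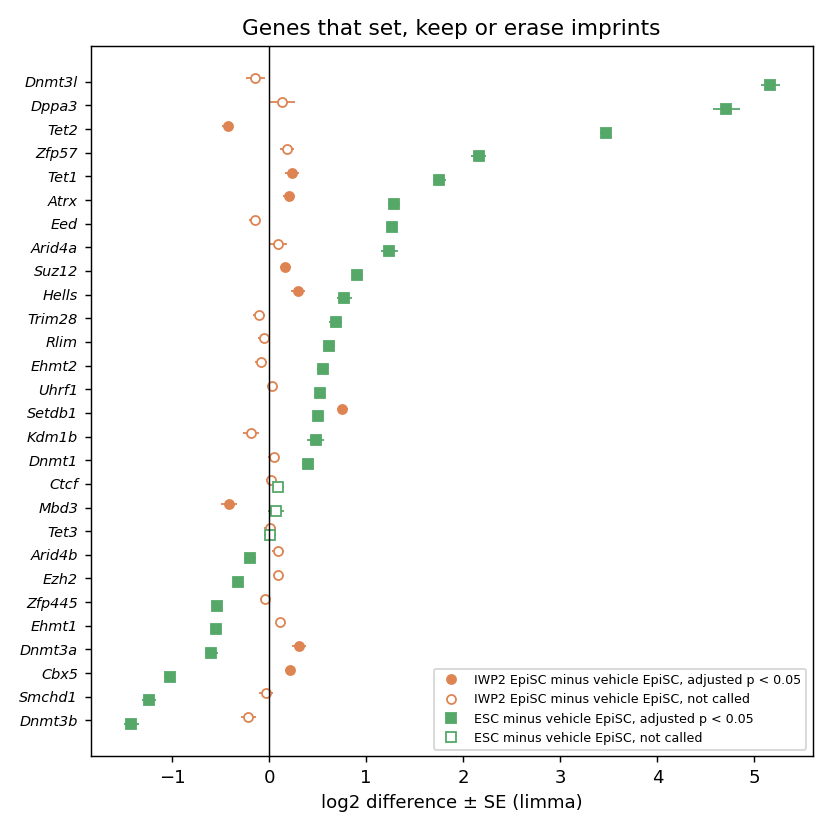
Each of 28 genes that set, keep or erase imprints is placed by its log2 difference from vehicle EpiSCs (horizontal axis, with standard error) in IWP2 EpiSCs (orange circles) and ESCs (green squares), filled where limma called it. With IWP2 the called differences stay between -0.42 and 0.75, while in ESCs they run from -1.42 for Dnmt3b to 5.16 for Dnmt3l.

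Imprinted genes beyond the 38 were read as a further list of 43, of which 33 were measured. With IWP2, 10 were higher and 9 lower (57.6% called, against 33.5% of all genes), with a median of 0.03. At 2-fold or more, 1 was higher, against 0.901% of all genes, and 7 were lower, against 2.81%. The 2-fold falls with the smallest p were Ddc, the aromatic amino acid decarboxylase next to Grb10 (-2.23), Kcnq1ot1, Cobl (-1.42) and Smoc1 (-1.40), and the rise was of Xist (1.59), the RNA that silences an X chromosome. In ESCs 15 were higher and 12 lower than in vehicle EpiSCs (81.8% called, against 66.6%). At 2-fold or more, 8 were higher, against 6.87% of all genes, and 8 lower, against 9.63%. Measured genes within 250 kb of a member of a domain, by their lowest RefSeq coordinates, that are on neither list of imprinted genes numbered 27. They lay by the Igf2-H19, Igf2r-Airn, Kcnq1, Peg10-Sgce and Snrpn domains, the last with 1 such gene, Snhg14. None lay by the Peg3 or Dlk1-Meg3 domain. Absence from both lists does not show that a gene is not imprinted. With IWP2, 2 of the 27 rose, Snhg14 (0.78) and Mrpl23 (0.20), and 2 fell, Col1a2 (-0.90) and Wtap (-0.30). That is 14.8% called, against 33.5% of all genes, none by 2-fold, and the median over the 27 was 0.04. In ESCs 10 of the 27 were higher than in vehicle EpiSCs and 9 lower (70.4% called, against 66.6%). At 2-fold or more, 2 were higher, Pnldc1 (2.15) and Pdk4 (1.27), against 6.87% of all genes. In the other direction 2 were lower, Casd1 (-1.52) and the collagen gene Col1a2 (-3.24), against 9.63%.

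Marker lists of other cell types were read beside these results, and their part was not tested. With IWP2, 33.5% of all genes were called, 16.6% higher and 16.8% lower. The share called was 75% for the fibroblast, 37.5% for the extraembryonic endoderm and 28.6% for the trophoblast markers. It was 42.9% for the mesoderm and 50% for the neural markers. Of 8 fibroblast markers 2 rose and 4 fell with IWP2, and the arrays' mean over the list ranged from 6.46 to 6.90 in vehicle EpiSCs, from 5.91 to 5.98 in IWP2 EpiSCs and from 5.13 to 5.19 in ESCs. Of 8 extraembryonic endoderm markers 3 fell with IWP2, Gata6, Pdgfra and Apoa1, with means of 5.13 to 5.24, 4.38 to 4.49 and 4.35 to 4.52. Of 7 trophoblast markers, 2 fell with IWP2, Gata3 and Krt7, with means of 4.87 to 4.91, 4.12 to 4.22 and 5.02 to 5.03. Of 7 mesoderm markers, 1 rose and 2 fell, with means of 5.07 to 5.38, 4.91 to 5.06 and 5.62 to 5.74, and of 8 neural markers, 3 rose and 1 fell, with means of 6.70 to 6.87, 6.89 to 7.03 and 6.73 to 6.82. Of the definitive endoderm markers, Gsc and Cxcr4 were at or below the lower quartile in IWP2 EpiSCs, and these and Foxa1 in ESCs.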

How the data were processed

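The deposited log2 values cover 45101 probe sets on 9 arrays, 3 per group. Per the submitters' processing notes the authors used RMA and limma, with no versions given. RMA corrects background, quantile-normalizes and summarises probes, which hides any shift in the amount of RNA per cell. There are no detection calls, and differences near the background are compressed. The array count limits the precision. Probe sets with 1 symbol in the platform annotation (34945, against 932 with several and 9160 with none) gave 18193 genes, each read from its probe set with the highest mean. Group means were fitted to all 9 arrays and all genes in R 4.3.3 with limma 3.58.1 (lmFit, eBayes, two-sided), and adjusted p-values follow Benjamini-Hochberg across the 18193 genes within each comparison. A gene with an adjusted p under 0.05 is called. The script was checked on simulated data.

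Members described with every array were those called at 2-fold or more in a comparison, with arrays of the groups not overlapping and the higher mean at or above the median of all values; Dlk1 and Nnat were added for their domain and as a near miss, after their values were seen. Of related lists, up to 4 called genes per direction were named by p, or all at 2-fold where few. Other regulators were named for their role, and all regulators called lower in ESCs than in vehicle EpiSCs were named. The members and lists were chosen with earlier results of these data known. Parental copies and gene roles are background knowledge. The labels' protocol also speaks of Wnt3a given after IWP2; such samples are not analysed here, and scan dates were not used here. Replicate numbers did not pair the samples.

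Alternatives were other choices of probe set, an offset of 32, a filter on low signal, other normalizations and variance models, fits of the compared arrays only, a replicate block, an adjusted p under 0.01 and leaving out each array.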

Additional observations from a re-analysis of the deposited data

How the results depend on the processing

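Over 21 alternatives, calls kept their side of the threshold for 16 of 20 members called for IWP2 minus vehicle, 26 of 31 for ESC minus vehicle and 25 of 29 for ESC minus IWP2. The members that lost a call in some setting were Cdkn1c, Tssc4, Cd81 and Ube3a in the first. In the second they were Dlk1, Snrpn, Usp29, Zim1 and Kcnq1, and in the last Peg10, Dlk1, Snrpn and Kcnq1. Other members gained a call in some setting, namely Dlk1, Usp29, Mirg, Ppp1r9a and Gnas in the first comparison. Gains in the second were of Peg10, Magel2, Rasgrf1 and Ascl2, and in the last of Rasgrf1. Where only genes with a mean at or above the median were tested, 22 members remained, and 10 and 12 of them were higher for ESC minus vehicle and ESC minus IWP2; fewer members were tested there. The value of Gnas for IWP2 minus vehicle, 0.01 and not called, turned to -0.21 (limma adjusted p = 0.0463) when probe sets named _x_at or _s_at were left out. Gnas was then read from another probe set, with a mean of 6.89 in vehicle EpiSCs in place of 12.45. Why these probe sets differ was not tested. Leaving out each array gave 6 to 7 higher and 12 to 15 lower members for IWP2 minus vehicle, 15 to 17 and 13 to 14 for ESC minus vehicle, and 18 to 21 and 8 to 9 for ESC minus IWP2. Same-numbered arrays of different groups did not deviate together (correlations of -0.06 to 0.051 in 9 pairs), so the numbers share only a name. A fit with the replicate block gave 6 higher and 14 lower members for IWP2 minus vehicle, 16 and 14 for ESC minus vehicle and 20 and 8 for ESC minus IWP2. It ended the IWP2 call of Cdkn1c (adjusted p = 0.0561) and both ESC calls of Snrpn (0.0596 and 0.0555) and added an IWP2 call of Usp29 (0.0436). At an adjusted p under 0.01 the counts were 5 and 11, 13 and 13, and 18 and 8. Signals at the background of 3.72 limit Asb4, Peg12, Mirg, Dlk1, Peg10, Zim1, Nap1l5 and Rasgrf1, where a difference is a lower limit or cannot be read.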
